A study of Mus musculus with 12 samples.

Results

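The AP-1 transcription factor genes described here are Fos, Fosb, Fosl2, Jun, Junb, Jund and Atf3. They are 7 of the 50600 genes in the deposited count table, were taken by name from a list, and were chosen with their values in these libraries known. Their levels and differences are therefore given as descriptions. Where members are counted as called in a fit over all genes, that count is also a description and not a test of them. Tests are read only for other genes. The study measured poly(A) RNA of sorted cells from the mouse dentate gyrus, the part of the hippocampus in which neurons are made throughout life. There were 12 libraries of 50 cells each, 4 for each of 3 cell types. All cells came from adult Nestin-GFP mice of 6 to 9 weeks, in which a Nestin promoter drives green fluorescent protein (GFP), and all were live and negative for CD31, CD45, O1 and O4, which mark endothelial cells, immune cells and oligodendrocyte lineage cells. Sorted cells with GFP and the glutamate transporter GLAST were called stem cells, those with GFP alone progenitors, and those with GLAST alone astrocytes. All groups were taken after ketamine and xylazine anaesthesia, perfusion, tissue dissociation and staining, and there is no group without these steps. The reporter and GLAST are the only positive criteria, so a group is a gate and not a single pure cell type. Astrocyte and progenitor libraries carry no number in the table and are called a to d, and stem cell libraries are numbered 1 to 4. The study describes 4 biological replicates for each group and 1 mouse brain for each such replicate, while the labels themselves name no animal.

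AP-1 is a dimer of basic leucine zipper (bZIP) proteins. FOS proteins pair mainly with JUN family proteins, whereas JUN proteins can also pair with themselves, and ATF3 can pair with JUN proteins. Fos, Fosb, Jun, Junb and Atf3 belong to the immediate early genes, whose transcription rises within minutes of a stimulus such as neuronal firing, a growth factor or cell stress, without new protein synthesis. In the hippocampus, Fos is widely used as a marker of recently active neurons, and tissue dissociation is known to raise immediate early transcripts.

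The sequence before the start of a gene can hold sites through which signals raise it. A short part of it is shown for the 4 members whose levels set progenitors apart. Sites farther from the start are not covered. All 7 members were found in the RefSeq promoter table on GRCm38.p6. The 250 bases before the RefSeq start are printed 5′ to 3′ on the gene's strand. Capitals mark TGACG, the core of the cAMP response element, and in Jun TGACATCA, a variant of the AP-1 site.
Fos, chr12:85473640-85473889, + strand: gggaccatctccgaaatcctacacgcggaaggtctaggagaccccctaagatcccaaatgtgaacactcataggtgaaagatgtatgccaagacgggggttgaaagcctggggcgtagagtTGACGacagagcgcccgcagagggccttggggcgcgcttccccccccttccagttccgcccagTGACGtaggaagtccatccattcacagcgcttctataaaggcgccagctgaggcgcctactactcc
Fosb, chr7:19310046-19310295, - strand: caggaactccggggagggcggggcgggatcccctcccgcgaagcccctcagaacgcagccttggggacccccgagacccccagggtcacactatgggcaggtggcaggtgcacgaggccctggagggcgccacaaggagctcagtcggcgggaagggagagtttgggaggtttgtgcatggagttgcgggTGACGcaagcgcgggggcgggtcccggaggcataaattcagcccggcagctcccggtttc
Jun, chr4:95052223-95052472, - strand: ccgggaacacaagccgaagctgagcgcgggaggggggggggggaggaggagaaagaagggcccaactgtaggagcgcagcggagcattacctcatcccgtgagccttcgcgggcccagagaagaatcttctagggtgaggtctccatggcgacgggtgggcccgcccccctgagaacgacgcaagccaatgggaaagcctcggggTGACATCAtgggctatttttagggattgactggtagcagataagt
Junb, chr8:84978749-84978998, - strand: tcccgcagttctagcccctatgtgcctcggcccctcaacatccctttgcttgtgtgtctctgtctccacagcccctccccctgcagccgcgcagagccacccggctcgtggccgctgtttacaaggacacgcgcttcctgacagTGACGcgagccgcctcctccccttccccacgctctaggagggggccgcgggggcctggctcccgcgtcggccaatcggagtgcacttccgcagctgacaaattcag
Positions are counted backwards from the start, with -1 as the last base before it. Fos held TGACG at -129 to -125 and at -66 to -62 and TATAAA at -33 to -28, Fosb held TGACG at -60 to -56, and Junb held it at -106 to -102. Jun held TGACATCA at -45 to -38. Atf3 held TGACG on the opposite strand at -7 to -3, and in Fosl2 and Jund none of the motifs searched was found. For these 3 the RefSeq start is not the start of the gene as given below. The windows of Fosl2 (chr5:32136222-32136471) and Atf3 (chr1:191183334-191183583) lie inside the gene, and that of Jund (chr8:70697489-70697738) ends well before it. Sequence next to the gene starts given below was not searched for Fosl2, Jund and Atf3. The RefSeq starts of Fosb and Junb also differ from the gene starts given below, by fewer bases. The Fosb window reaches slightly into the gene and the Junb window ends slightly before it. Positions are counted from the RefSeq start. TGACG was searched on both strands, as were the full element TGACGTCA, which contains it, the AP-1 site TGACTCA and the variant TGACATCA. The TATA box TATAAA was searched on the gene's strand alone. All motifs were chosen with the sequences in view. Of 32851 promoters of this length, 17.8% held TGACG, 1.55% the full element, 4.46% the AP-1 site, 2.93% its variant and 7.59% the TATA box. A match is a description of letters and not evidence of a bound site.

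Counts on genes ranged from 5357232 to 6253680 in astrocytes, from 9041498 to 12535028 in progenitors and from 5031166 to 10435711 in stem cells. Levels are CPM, counts per 1000000 counts on genes, on library sizes scaled by the trimmed mean of M-values (TMM). A floor of 3 counts in a library was 0.206 to 0.639 CPM, and amplified copies were counted as reads, so floors and intervals cover counting error only. In a pool of 50 cells, fewer cells with a transcript and less transcript per cell cannot be told apart. Of the marker lists, the 6 astrocyte markers summed to 12458.3 to 16517.7 CPM in astrocytes, 18839.5 to 24838.9 in stem cells and 5697.2 to 7593.9 in progenitors, and the 6 markers of intermediate progenitors and immature neurons to 801.4 to 1534.1 CPM in progenitors and at most 299.3 in the other libraries. The 6 stem cell markers summed to 1012.5 to 1773.4 CPM in stem cells, 706.3 to 1174.6 in astrocytes and 494.7 to 656.2 in progenitors. Among them Hopx averaged 544 CPM in stem cells, 257 in astrocytes and 194 in progenitors, with every stem cell library above the others. Against the label, Nes, the gene of the reporter's promoter, had 4 counts in 1 stem cell library and 0 in the other 3, and Lpar1 was at the floor in all 4. In progenitors Nes was at 0.084 to 19.96 CPM, and it was at 0 in astrocytes.

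Fos encodes the prototype FOS subunit. Its gene lies at chr12:85473890-85477273 on the + strand of GRCm38, with 2352 exonic bases. Fos was at 2434, 2293, 1436 and 2858 CPM in progenitors a to d, a mean of 2255 ± 597 (SD, n = 4) that rested on 15546 to 35487 counts per library. In astrocytes a to d it was at 4.69, 2.74, 1.78 and 68.8 CPM (19.5 ± 32.9, SD, n = 4). In stem cells 1 to 4 it was at 23.2, 58.9, 13.9 and 2.60 CPM (24.6 ± 24.3, SD, n = 4). All 4 progenitor libraries lay above all 8 others, and astrocytes and stem cells overlapped, with astrocyte library d above every stem cell library. Ranked by counts per kilobase of exon, Fos had a rank from 14 to 26 in progenitor libraries, from 2153 to 13162 in stem cell libraries and from 2047 to 11122 in astrocyte libraries. The mean in progenitors was 116-fold that in astrocytes, with a log2 fold change of 6.85 ± 1.24 (SE), and 91.5-fold that in stem cells, with a log2 fold change of 6.48 ± 0.80 (SE). Without stem cell library 2 the fold against stem cells was 171. Astrocyte library d held most of the astrocyte signal, and without it the fold against astrocytes was 735. Stem cells against astrocytes gave a log2 fold change of 0.36 ± 1.39 (SE), which became 3.02 without astrocyte library d, so no order of these groups can be given for Fos.

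Fosb encodes another FOS subunit, whose shorter splice form is known to build up after repeated stimulation. The counts are per gene and do not separate the forms. The gene lies at chr7:19302696-19310051 on the - strand. Fosb was at 74.8, 63.9, 43.2 and 75.4 CPM in progenitors a to d (64.3 ± 15.0, SD, n = 4). In astrocytes a to d it was at 36.0, 1.83, 0.198 and 0.204 CPM (9.56 ± 17.6, SD, n = 4), and in stem cells it had 9 counts in library 3 (1.13 CPM) and 0 in libraries 1, 2 and 4. Progenitors again did not overlap with either other group, but astrocyte library a, at 36.0 CPM, came near the lowest progenitor library at 43.2 CPM. The fold over astrocytes was 6.73, with a log2 fold change of 2.80 ± 1.47 (SE), and 86.6 without astrocyte library a. With every stem cell library set to at least 3 counts, the fold over stem cells was at least 108. Without stem cell library 3, all remaining stem cell libraries were at 0 and the fold was at least 154. On the scale of CPM per kilobase of exon, Fosb averaged 10.3 in progenitors against 959 for Fos.

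Fosl2 encodes FRA2, a FOS relative without the strong transactivation domain of FOS. It lies at chr5:32135801-32157842 on the + strand. It was at 1.51, 0, 0.924 and 2.15 CPM in progenitors a to d, at 2.56, 0, 0 and 0.408 CPM in astrocytes a to d, and had no count in any stem cell library. The groups overlapped, and the highest single library was astrocyte library a, which was also the astrocyte library highest in Fosb. The log2 fold change of progenitors over astrocytes was 0.67 ± 1.51 (SE), and 2.98 without astrocyte library a.

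Jun encodes the JUN subunit that is activated by Jun N-terminal kinases. It is a gene of 1 exon at chr4:95049034-95052222 on the - strand. Jun was at 836, 913, 756 and 1031 CPM in progenitors a to d (884 ± 117, SD, n = 4). It was at 1.70, 1.46, 31.2 and 1.84 CPM in astrocytes a to d (9.05 ± 14.8, SD, n = 4) and at 61.7, 43.0, 79.3 and 44.6 CPM in stem cells 1 to 4 (57.1 ± 17.0, SD, n = 4). Jun was the only member whose 3 groups did not overlap at all, in the order progenitors, stem cells, astrocytes. In progenitors its rank by counts per kilobase of exon was 59 to 99, and in stem cells 2247 to 3861. The fold of progenitors over astrocytes was 97.7, with a log2 fold change of 6.58 ± 1.14 (SE), and 530 without astrocyte library c, which held most of the astrocyte counts. The fold of progenitors over stem cells was 15.5, with a log2 fold change of 3.91 ± 0.24 (SE), the smallest SE among the members. Leaving out any library kept this log2 fold change between 3.79 and 4.11. Stem cells exceeded astrocytes 6.31-fold, with a log2 fold change of 2.65 ± 1.20 (SE), and 34.3-fold without astrocyte library c.

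Of the exonic bases of Jun, 7.3% overlap Junos, a gene on the opposite strand. The authors counted without regard to strand, so reads of the overlap cannot be assigned to either. Junos was at 64.9 to 80.4 CPM in progenitors, 0 to 11.8 in astrocytes and 3.88 to 9.29 in stem cells, well below Jun in progenitors. In astrocytes b and d, by contrast, Junos was above Jun, at 8.40 and 11.8 CPM.

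Junb encodes a JUN subunit that is a weaker activator than JUN and can restrain it in a dimer. It lies at chr8:84974484-84978718 on the - strand, and 7.5% of its exonic bases overlap Prdx2 on the + strand. Junb was at 224, 387, 149 and 404 CPM in progenitors a to d (291 ± 125, SD, n = 4). In astrocytes a to d it was at 0.426, 1.83, 4.54 and 0.817 CPM (1.90 ± 1.86, SD, n = 4), and in stem cells 1 to 4 at 2.16, 27.0, 0.876 and 24.3 CPM (13.6 ± 13.99, SD, n = 4). Progenitors lay above all other libraries, and stem cells and astrocytes overlapped, the stem cell library being higher in 13 of 16 pairs of libraries. The stem cell libraries were far apart, with libraries 2 and 4 above all astrocyte libraries and library 3 above only 2 of them. Progenitors exceeded astrocytes 153-fold (log2 fold change 7.22 ± 0.86, SE) and stem cells 21.4-fold (log2 fold change 4.39 ± 0.95, SE). Without astrocyte library c the first fold was 284. Prdx2, which encodes a peroxidase, was at 378 to 629 CPM in progenitors, 153 to 448 in astrocytes and 334 to 504 in stem cells.

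Jund encodes the JUN subunit that many resting cells express, and is not a typical immediate early gene. It is a gene of 1 exon at chr8:70698949-70700616 on the + strand, with 52.6% of its bases under Gm11175 on the - strand. Jund was at 5.69, 2.59, 4.16 and 4.30 CPM in progenitors a to d (4.19 ± 1.27, SD, n = 4) and at 1.33, 4.95, 0.625 and 2.60 CPM in stem cells 1 to 4 (2.38 ± 1.90, SD, n = 4). Among astrocytes only library c had counts, 40 of them (7.90 CPM). All groups overlapped. The log2 fold change of progenitors over stem cells was 0.78 ± 0.83 (SE), and 1.41 without stem cell library 2. That over astrocytes was 1.04 ± 1.68 (SE). Without astrocyte library c all remaining astrocyte libraries were at 0, and the fold was at least 6.98. The counts of Gm11175 followed those of Jund, with 62, 28, 32 and 37 against 83, 31, 45 and 50 in progenitors a to d, 10, 32, 2 and 10 against 13, 38, 5 and 14 in stem cells 1 to 4, and 35 against 40 in astrocyte library c. How these reads divide between the strands is not known, so the level of Jund is uncertain.

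Atf3 encodes a stress-induced bZIP protein that acts mainly as a repressor when it pairs with itself. It lies at chr1:191170296-191218039 on the - strand. It had 12 counts in progenitor library a (0.823 CPM), 11 in stem cell library 2 (1.43 CPM) and none in the remaining 10 libraries. It did not pass the filter of 10 counts in 4 libraries in any comparison. Where no count was found, a level of up to 3 counts, at most 0.639 CPM, was not detectable at this depth.

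**Figure D1:**
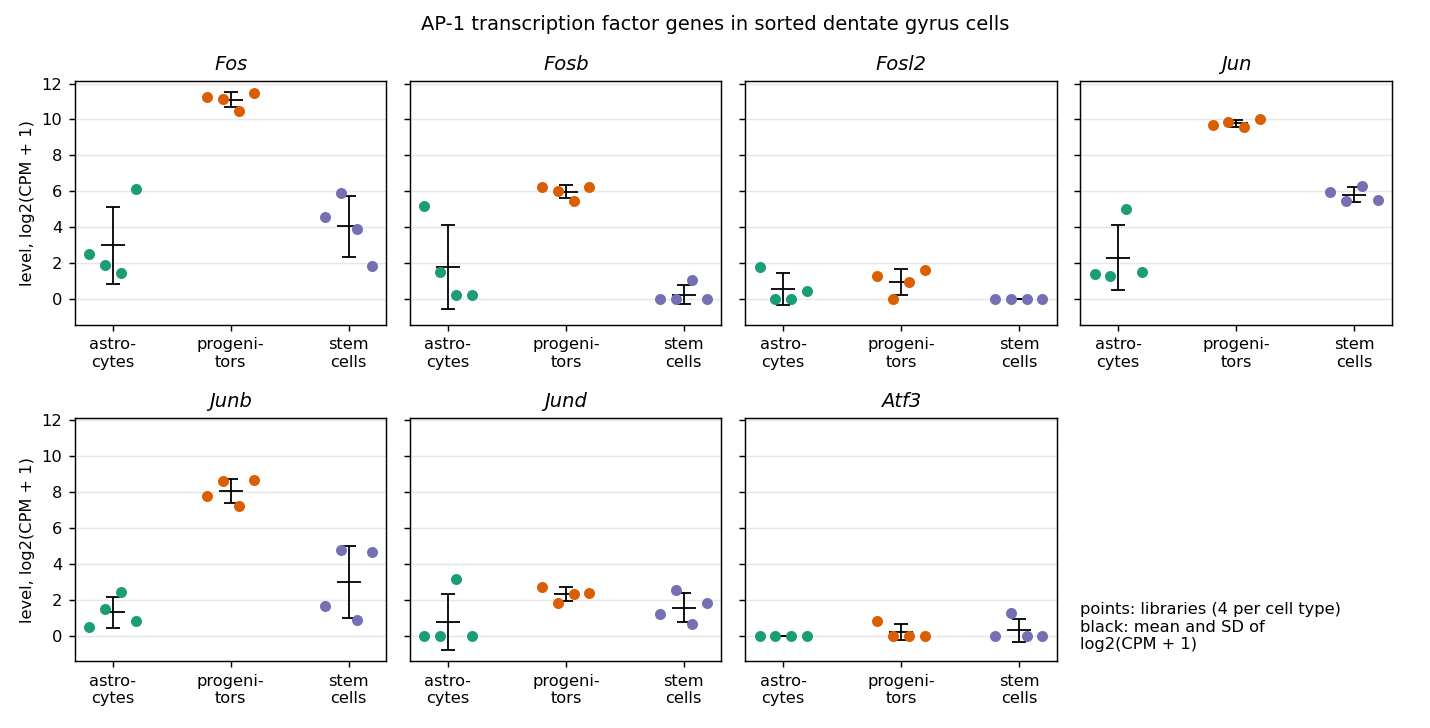
Levels of the 7 AP-1 genes by cell type. Each panel is 1 gene, the y axis is log2(CPM + 1), points are libraries, and the black lines with bars are the mean and SD of 4 libraries on this scale. Fos, Fosb, Jun and Junb have all progenitor libraries above the 8 others, at 1436 CPM or more for Fos and 756 or more for Jun, while Fosl2, Jund and Atf3 overlap between the cell types.

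Of the 7 members, 4 had every progenitor library above all 8 others (Fos, Fosb, Jun and Junb), where 5.35% of the 16119 genes with at least 10 counts in 4 libraries had the same. Against astrocytes alone these 4 members did not overlap, beside 15.2% of the genes tested there, and against stem cells alone the same 4, beside 11.8%. Only Jun had every stem cell library above every astrocyte library, beside 6.28% of genes. In the edgeR fit over all genes, 6 members passed the filter for astrocytes against progenitors and 3 of them (Fos, Jun and Junb) were called higher in progenitors, as were 6.18% of 14806 genes. For progenitors against stem cells, 5 passed and 4 (Fos, Fosb, Jun and Junb) were called higher in progenitors, as were 4.95% of 15427 genes. For astrocytes against stem cells, 4 passed and none was called in edgeR or in DESeq2, with 1 under an unadjusted p of 0.05, and 0.0468% of 12831 genes were called in either direction. The members were chosen with these contrasts known, so nothing is read from their share. The median log2 fold change over members that passed was 4.69 for progenitors over astrocytes and 4.39 for progenitors over stem cells, beside -0.03 and 0.04 over all genes tested, and a filter that keeps a gene for its high group favours such a median. Both comparisons use the same progenitor libraries.

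The members differed in how large a part of the AP-1 counts they made up. Summed, they took 4160, 4374, 2860 and 5240 of every 1000000 counts in progenitors a to d, 36.1, 6.88, 39.4 and 65.9 in astrocytes a to d, and 82.5, 133, 89.2 and 79.3 in stem cells 1 to 4. FOS family genes (Fos, Fosb and Fosl2) held 70.2%, 64.4%, 62.0% and 67.1% of these counts in progenitors a to d, and Jun 23.4%, 25.0%, 31.6% and 23.6%. The makeup of the progenitor libraries was thus alike, with Fos, Jun and Junb the most abundant in this order in each. In stem cells 1 to 4 the FOS family held 26.3%, 43.6%, 15.7% and 3.51%, and in each the share was below that of every progenitor library. The 95% Wilson interval was 40.6% to 46.6% in the stem cell library with the highest share and 61.4% to 62.6% in the progenitor library with the lowest, from 1038 and 25858 counts. These intervals cover the counting of amplified reads only and not the spread between libraries, which in stem cells was 3.51% to 43.6%. Jun led in stem cells 1, 3 and 4 with 69.8%, 82.8% and 60.2% of the counts, and Fos in stem cells 2 with 43.6%.

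The leading gene differed between astrocyte libraries, with Fosb in library a, Jun in c and Fos in b and d. Library a had 213 AP-1 counts, of which 169 were Fosb, library c 231, of which 158 were Jun, and library d 353, of which 337 were Fos. Library b had 43 counts in all, spread over Fos (34.9%), Junb (23.3%), Jun (18.6%) and Fosb. The share of the FOS family was accordingly 95.3%, 58.1%, 4.33% and 96.3% in astrocytes a to d, over nearly the whole range that a share can take. The astrocyte means of Fos, Fosb and Jun are therefore each set by 1 library.

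**Figure D2:**
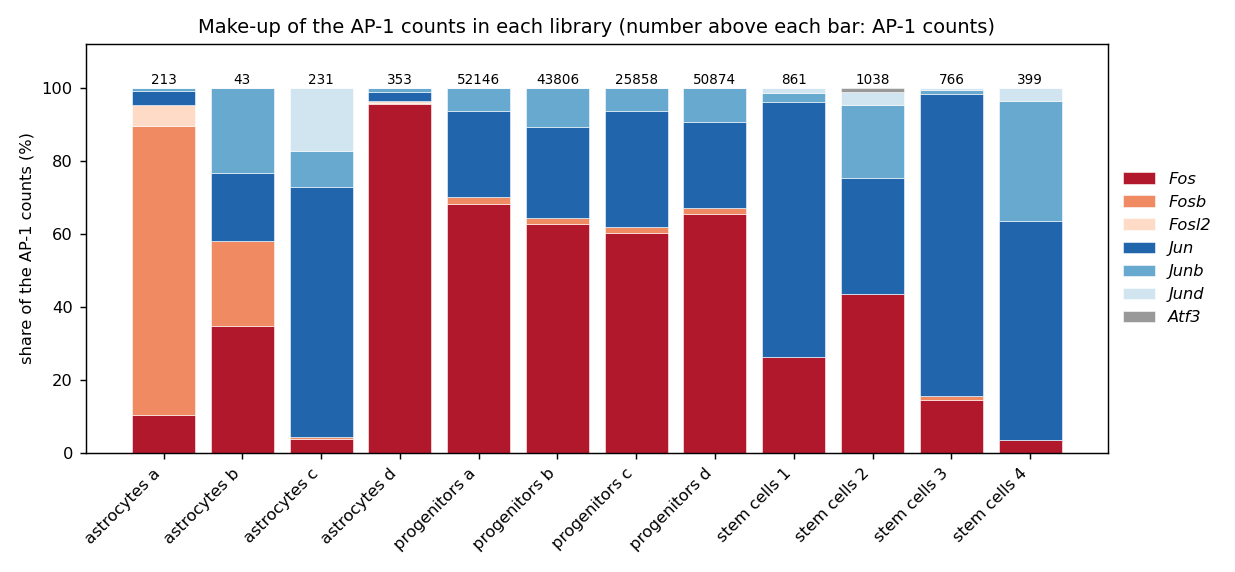
Makeup of the AP-1 counts in each library. Each bar is 1 library, the stacked parts are the percent of its AP-1 counts that each member took, and bars sum to 100 percent, with the AP-1 counts above each. Fos takes 60.1 to 68.1 percent in every progenitor library, Jun leads in 3 of 4 stem cell libraries, and the leading gene changes between astrocyte libraries.

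Within the progenitors, library d was highest and library c lowest in Fos, Fosb, Jun and Junb alike. The highest library exceeded the lowest 1.99-fold for Fos, 1.74-fold for Fosb, 1.37-fold for Jun and 2.72-fold for Junb. Jun was the most even, with a coefficient of variation of 13.3% against 26.5% for Fos, 23.4% for Fosb and 42.9% for Junb. Jund did not share the order, being highest in library a and lowest in library b. Markers of other cells also differed between the libraries. The 5 markers of oligodendrocyte precursors summed to 1731.9 to 2714.6 CPM in progenitors, 62.6 to 138.4 in stem cells and 42.9 to 320.3 in astrocytes, with none of them at the floor in any group. In progenitors a to d they summed to 1994.8, 1731.9, 2714.6 and 2557.5 CPM, so libraries c and d, the lowest and the highest in Fos, both had high sums. The 5 mural cell markers summed to 2082.6, 39.4, 2099.9 and 912.2 CPM in progenitors a to d and to at most 191.6 elsewhere. In library b, with the lowest mural sum, Fos was at 2293 and Jun at 913 CPM. The immature neuron markers (Dcx among them, which no progenitor library lacked) were lowest in library c, at 801.4 CPM, as were Fos, Fosb, Jun and Junb. The 6 microglia markers summed to 5.8 to 17.2 CPM in progenitors, 25.8 to 69.1 in stem cells and 11.7 to 110.7 in astrocytes, with Tmem119 and Aif1 at the floor in progenitors. The 5 endothelial markers summed to 0.8 to 3.4 CPM in progenitors, with Cldn5 at the floor, to 0.8 to 88.0 in stem cells and to 0.0 to 16.6 in astrocytes. The 5 mature neuron markers summed to 178.9 to 261.0 CPM in progenitors, 248.9 to 438.1 in stem cells and 652.7 to 4859.9 in astrocytes, and the 5 oligodendrocyte markers to 94.0 to 130.7, 72.2 to 469.1 and 213.8 to 2901.4. The part of oligodendrocyte precursors, mural cells and immature neurons in the AP-1 levels of progenitors was not tested.

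**Figure D3:**
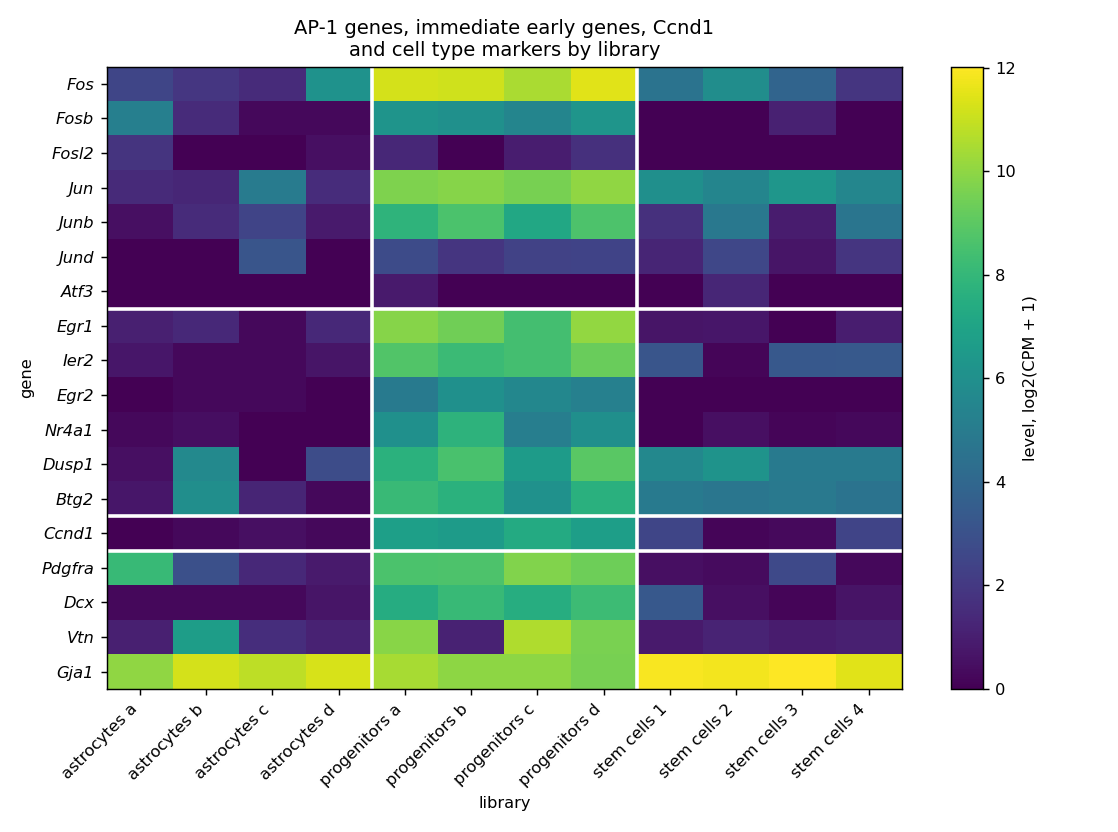
AP-1 genes, related genes and cell markers across the 12 libraries. Rows are genes, columns are libraries grouped by cell type, and the colour is log2(CPM + 1). Fos, Jun, Junb and Egr1 are high in all 4 progenitor libraries, whereas Vtn, a mural cell marker, is low in progenitor library b.

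Genes around AP-1 were read from lists that the choice of members did not use, although some of their values were known from earlier work on these data. Of 14 other genes of the wider bZIP family, 7 passed the filter for astrocytes against progenitors and none was called in edgeR or DESeq2, with 0 at an unadjusted p under 0.05. For progenitors against stem cells 7 passed and 1 was called, beside 4.95% of all genes tested that were called higher in progenitors. This was Maf, which encodes a large MAF protein. It was at 5.81 CPM in progenitors and at least 14.3-fold higher than in stem cells (edgeR, Benjamini-Hochberg adjusted p = 0.01), and was higher in all 16 pairs of libraries. Maf passed the filter only through the progenitor libraries, so a difference in the other direction could not have been found. The call was lost when all 12 libraries were fitted together. Atf7 and Mafg, the most abundant of the list in astrocytes against progenitors, were at 137 and 99.2 CPM in astrocytes and 83.5 and 73.2 CPM in progenitors, and did not pass the test (edgeR adjusted p = 0.51 and 0.85). For astrocytes against stem cells 4 were tested and none was called in edgeR or DESeq2, with 0 at an unadjusted p under 0.05. Atf7 and Mafg, again the most abundant, had log2 fold changes of stem cells over astrocytes of -0.54 ± 0.55 and -1.40 ± 0.96 (SE, edgeR adjusted p = 0.84 and 0.73). Fosl1, the remaining FOS family gene, had 48 counts in progenitor library b (4.01 CPM) and at most 2 in any other library.

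The 20 regulators were kinases of the JNK, ERK and p38 pathways and the factors that read them at the Fos promoter (SRF, its cofactors, ELK proteins, CREB1 and CREM). Of 19 tested in astrocytes against progenitors, 3 had an unadjusted p under 0.05 and 1 was called, Mrtfb, a cofactor of SRF that was higher in astrocytes. It was at 162 CPM in astrocytes against 44.8 in progenitors, with a log2 fold change of progenitors over astrocytes of -1.85 ± 0.48 (SE, edgeR adjusted p = 0.038), and was lower in progenitors in all 16 pairs of libraries. The call was lost when any 1 of the 4 progenitor libraries was left out. None of 19 was called for progenitors against stem cells in edgeR or DESeq2, with 0 at an unadjusted p under 0.05. The most abundant there, Mapk10 and Map2k2, kinases of the JNK and ERK pathways, were at 125 and 109 CPM in progenitors and 102 and 85.8 CPM in stem cells (edgeR adjusted p = 0.59 and 0.78). None of 19 was called for astrocytes against stem cells in edgeR, with 1 at an unadjusted p under 0.05 and 1 called in DESeq2. In that comparison Mrtfb was at 43.0 CPM in stem cells (log2 fold change of stem cells over astrocytes -1.91 ± 0.54, SE, edgeR adjusted p = 0.18), and Mapk10 was at 102 CPM in stem cells and 96.8 in astrocytes (edgeR adjusted p = 0.98). The median log2 fold change of the regulators was 0.23 for progenitors over astrocytes and 0.32 for progenitors over stem cells, beside -0.03 and 0.04 over all genes.

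Immediate early genes outside AP-1 that passed the test were all higher in progenitors. Of 19, 13 were tested in astrocytes against progenitors and 4 were called, and 13 in progenitors against stem cells, of which 6 were called. Over all genes tested, 6.18% and 4.95% were called higher in progenitors. Of those not called, named after their values were seen, Nr4a3 was lower in progenitors than in astrocytes (log2 fold change -1.28 ± 1.36, SE). Nr4a2 was lower in progenitors than in stem cells (log2 fold change -1.44 ± 1.49, SE). Egr1, Egr2, Nr4a1 and Ier2 passed the filter only through the progenitor libraries, where they were high. For such genes a difference in the other direction could not have been found. Egr1, a zinc finger factor, was at 758 CPM in progenitors, 668-fold its mean in astrocytes and 1381-fold its mean in stem cells (edgeR adjusted p = 0.00029 and 5.6e-05). Egr1 had only 1 to 9 counts per astrocyte library and 0 to 6 per stem cell library, near the floor of 3, so these folds are imprecise. Its per-library levels in progenitors a to d were 921, 674, 345 and 1092 CPM, with the same highest and lowest library as Fos. Ier2 was at 420 CPM, at least 702-fold above astrocytes and 64.3-fold above stem cells (edgeR adjusted p = 0.00021 and 0.0021). Nr4a1, an orphan nuclear receptor, was at 94.3 CPM, at least 158-fold above astrocytes and at least 231-fold above stem cells (edgeR adjusted p = 0.0064 and 0.00072). Progenitor library b, at 215 CPM, held most of its counts, and without it the folds were at least 90.7 and at least 133. Egr2 was at 44.4 CPM, at least 74.2-fold and at least 109-fold higher (edgeR adjusted p = 0.008 and 0.001).

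The remaining 2 genes called against stem cells, named after their values were seen, had clear levels in stem cells as well. Btg2, an antiproliferative gene, was at 186 CPM in progenitors and 26.6 in stem cells (log2 fold change 2.77 ± 0.39, SE, edgeR adjusted p = 0.0029). Dusp1, a phosphatase that switches off MAP kinases, was at 292 and 44.5 CPM (log2 fold change 2.68 ± 0.50, SE, edgeR adjusted p = 0.0096). Neither call held when all 12 libraries were fitted together (edgeR adjusted p = 0.47 for both). All 6 genes called against stem cells were higher in all 16 pairs of progenitor and stem cell libraries, as were 11.8% of all genes tested there. They were taken for being called in this same comparison, so this adds no support. For astrocytes against stem cells, 6 of the 19 were tested and none was called in edgeR or DESeq2, with 1 at an unadjusted p under 0.05. Klf6 and Dusp1, the most abundant, were at 47.7 and 44.5 CPM in stem cells and 27.3 and 13.8 CPM in astrocytes (edgeR adjusted p = 0.92 and 0.82). The median log2 fold change of the list was 4.04 for progenitors over astrocytes and 2.49 for progenitors over stem cells, beside the same -0.03 and 0.04 over all genes. As with the members, a filter that keeps a gene for its high group favours such a median, so nothing is read from it.

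Of 16 genes known as AP-1 targets, few were measurable. For astrocytes against progenitors 5 passed the filter and 2 were called higher in progenitors, and for progenitors against stem cells 6 passed and 1 was called. Over all genes tested, 6.18% and 4.95% were called higher in progenitors. Ccnd1, cyclin D1 of the cell cycle, was at 111, 94.4, 165 and 107 CPM in progenitors a to d and at 0.130 to 4.72 CPM in stem cells. Its progenitor mean was at least 199-fold above astrocytes and 49.9-fold above stem cells (edgeR adjusted p = 0.0012 and 0.006). In both comparisons Ccnd1 passed the filter only through the progenitor libraries, so a difference in the other direction could not have been found. Unlike Fos, Ccnd1 was highest in progenitor library c. Hmox1, heme oxygenase, was at 11.1 CPM in progenitors, at least 18.5-fold above astrocytes (edgeR adjusted p = 0.018), and at 17.9 CPM in stem cells, from which progenitors did not pass the test (edgeR adjusted p = 0.71). Against astrocytes Hmox1 too passed the filter only through progenitors, so the direction of its call was fixed. The call of Hmox1 against astrocytes was lost without progenitor library c or d and with no filter (edgeR adjusted p = 0.052, 0.053 and 0.061). For astrocytes against stem cells 5 were tested and none was called in edgeR, with 1 at an unadjusted p under 0.05 and 1 called in DESeq2. Vegfa, a vascular growth factor, was at 136 CPM in stem cells and 190 in astrocytes (edgeR adjusted p = 0.89), and Hmox1 did not pass there either (edgeR adjusted p = 0.092). The median log2 fold change of the tested targets was -0.36 for progenitors over astrocytes and -0.56 for progenitors over stem cells, beside -0.03 and 0.04 over all genes.

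**Figure D4:**
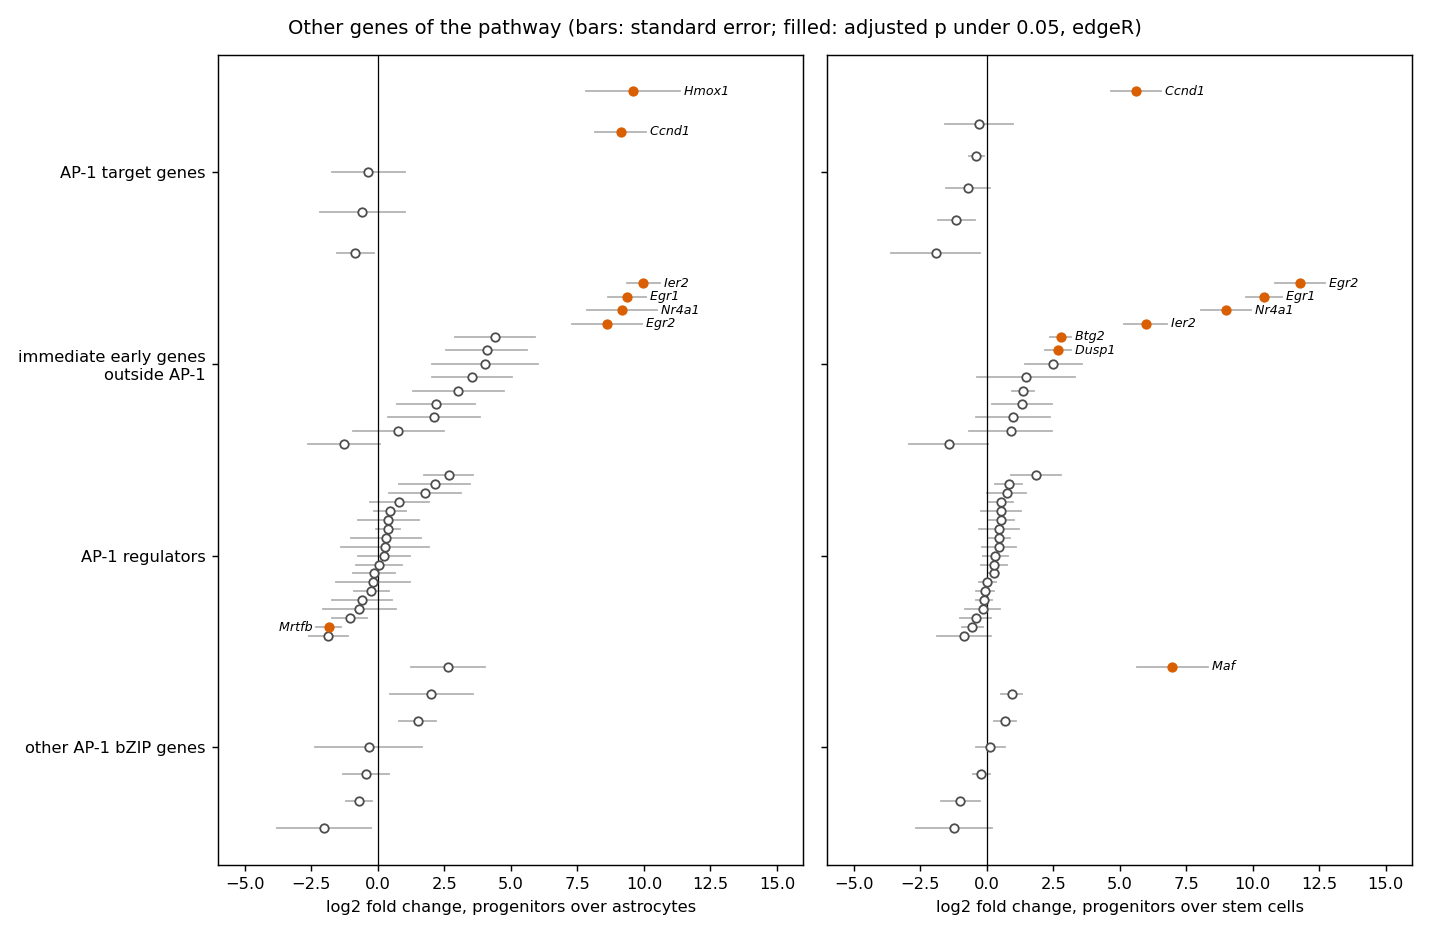
Log2 fold changes of genes around AP-1. Each point is 1 tested gene of a list, the x axis is the log2 fold change of progenitors over astrocytes (left) or over stem cells (right) with its standard error, and filled points had an edgeR adjusted p under 0.05. Fitted values of genes at the floor in 1 group, such as Egr2, depend on the prior count. Among the immediate early genes 4 of 13 are filled on the left and 6 of 13 on the right, while of the regulators only Mrtfb is filled, on the left. Over all genes tested, 6.18% and 4.95% were called higher in progenitors.

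The pattern most like the members was sought over the 12 libraries, with Pearson's r between each gene's log2(CPM + 1) and the mean of the members' standardised values. Of 16113 genes that are no member, the 10 highest were Gm4617, Gfra2, Igsf9, Lims2, Gm5087, Sema3c, Gm42441, Gm26752, Vwa5b2 and Tmem140, with r from 0.949 to 0.965. The 12 points fall into progenitors and the rest and share their libraries' depth, so these r are a measure of likeness only. Lims2 averaged 124 CPM in progenitors, 0.10 in astrocytes and 3.94 in stem cells, and Tmem140 15.4, 0.16 and 0.13 CPM. The immediate early genes came lower in this order, with Egr1 128th at r = 0.897, Nr4a1 209th at r = 0.878 and Ier2 330th at r = 0.847. The members had equal weight in the mean, so Fosl2, Jund and Atf3, with few counts, weighed as much as Fos. Stem cell library 2 had a mean of 0.256, above every other library outside progenitors. A lower place in this order therefore does not show a lower likeness to Fos or Jun alone. The order was fragile, since only 3 of the 10 genes stayed among the first 10 with a pseudocount of 0.1, and 2 with Spearman's rho.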

How the data were processed

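Poly(A) RNA of 12 libraries of 50 sorted mouse cells was analysed. The authors preamplified cDNA with SMARTer v4, made Nextera XT libraries, trimmed adapters with AdapterRemoval, removed ribosomal, mitochondrial and PhiX reads, aligned to GRCm38.p4 with HISAT2 2.0.6 and counted reads in GENCODE M14 with featureCounts, in its unstranded mode. The deposited counts per gene are raw whole numbers. The number of columns that could not be mapped and were left out is 0. Symbols, coordinates, exonic lengths and overlaps were taken from GENCODE M21 (GRCm38), which matched 50376 of 50600 identifiers.

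The members and gene lists were chosen with earlier results of these data known. Each pair of cell types was fitted with edgeR 4.0.16 in R 4.3.3 (TMM, quasi-likelihood test, 10 or more counts in 4 of 8 libraries, or 3 when a library was left out, Benjamini-Hochberg threshold of 0.05 over all genes tested). Where no library of a group exceeded 3 counts, the group was at the floor, and folds against it use 3 counts per library. The study used DESeq2 after CLEAR. CLEAR needs base coverage and was not run. Results for 1 gene are not reported. Genes named were the members, of each list up to 4 called genes per comparison with the largest change or, with none called, the 2 most abundant, and the 10 genes most like the members. Alternatives were size factors, DESeq2 1.42.0, no filter, a fit to all 12 libraries, 10 counts in every library, and leaving out each library. Scripts were tested on simulated data, and used Python 3.11.15, numpy 2.4.6, pandas 2.3.3 and scipy 1.17.1.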

Additional observations from a re-analysis of the deposited data

Results flagged for a closer look

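In 8 of the 19 groups of 4 libraries with a member above the floor, the highest library stood far from the others by Dixon's measure, the gap to the nearest library over the range of the group. The cut-off flags about 1 in 20 groups of normally distributed values. CPM of such libraries need not be normally distributed, so the share flagged by chance here is not known. Groups with most libraries at 0 are flagged by any single count above it. In astrocytes, Fos was at 68.8 CPM in library d (gap over range 0.957), Jun at 31.2 CPM in library c (0.987) and Fosb at 36.0 CPM in library a (0.954). Fosl2, at 2.56 CPM in library a (0.84), and Jund, at 7.90 CPM in library c (1.0), were highest in the same libraries as Fosb and Jun. In stem cells, Fosb was at 1.13 CPM in library 3 and Atf3 at 1.43 CPM in library 2, with the other 3 libraries at 0. In progenitors, Atf3 was at 0.82 CPM in library a and at 0 in the other 3.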

How the results depend on the processing

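A member's log2 fold change counted as moved if it shifted by the pooled SD of log2(CPM + 1) within the 2 groups or more. None moved under edgeR with size factors, DESeq2, no filter, 10 counts in every library or all 12 libraries in one fit. This covers the 62 values that could be computed, and no direction reversed in these. When a library was left out, 11 of 120 moved and 109 did not, and those that moved follow the single libraries named beside the members. For stem cells over astrocytes the left-out values of Fos ran from -0.55 to 3.02 and those of Jund from -0.38 to 6.98, beside 0.36 and 0.26 with all libraries. Counts of members called with a library left out ranged from 3 to 4 for astrocytes against progenitors and from 3 to 5 for progenitors against stem cells. Requiring 10 counts in every library removed most members, leaving 0 tested and 0 called in astrocytes against progenitors and 2 tested and 2 called in progenitors against stem cells. Under that filter, calls in astrocytes against progenitors were 0 for regulators, 0 for immediate early genes and 0 for targets, and calls in progenitors against stem cells were 0 for other bZIP genes, 3 for immediate early genes and 0 for targets. With DESeq2, calls were 3 for regulators in astrocytes against progenitors, and 1 for regulators and 1 for targets in astrocytes against stem cells. With all 12 libraries in one fit, other bZIP genes had 0 calls in progenitors against stem cells, and regulators and targets 1 each in astrocytes against stem cells. Without a filter, astrocytes against progenitors gave 0 calls for regulators and 1 for targets. With libraries left out, the calls in astrocytes against progenitors ranged from 0 to 1 for other bZIP genes (1 without astrocyte library a), from 0 to 1 for regulators, from 4 to 7 for immediate early genes (7 without astrocyte library b) and from 1 to 2 for targets (1 without progenitor library c or d). In progenitors against stem cells they ranged from 1 to 2 for other bZIP genes (2 without stem cell library 1). The cause was not tested. Of the 10 genes most like the members, 3 remained with a pseudocount of 0.1, 2 with Spearman's rho and 1 with 10 counts in all 12 libraries. Only Gm4617 of the 10 passed that last filter, where it kept rank 1, so the filter itself set this count. The FOS share in progenitors was 65.9% by counts and 70.2% (70.15) by counts per kilobase of exon. No paired analysis was possible because the astrocyte and progenitor columns carry no replicate numbers.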
